A study of Mus musculus with 16 samples.

Results

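The BMP antagonists and modulators described here were 9 genes, *Nog*, *Chrd*, *Chrdl1*, *Grem1*, *Bmper*, *Sostdc1*, *Bambi*, *Smad6* and *Smad9*, of the 19938 genes measured by a probe set that names no other gene. They were chosen by symbol and not by a cut on their signals, but with earlier results of these data known. Each of the 9 had exactly 1 such probe set. Expression was profiled on Affymetrix Mouse Gene ST arrays in tooth germs of wild-type C57Bl6 mouse embryos at E14.5, the cap stage. There were 4 lower incisor, 8 mandibular first molar and 4 maxillary first molar samples, and the study set mandibular molars against lower incisors and against maxillary molars to find what distinguishes tooth types. Each sample was 1 array hybridized with RNA from 4 pooled tooth germs, and no group carried a treatment or an altered allele. It is not stated from which animals each pool was made, so p-values measure only how far these samples spread, which may be partly technical. The study discarded 1 incisor sample, for high background after a technical fault in hybridization, without naming it. All 4 are therefore used here, that array included. Each germ was taken whole, with its epithelium and mesenchyme, and in such bulk samples fewer cells of a type and less RNA per cell cannot be told apart.

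Bone morphogenetic proteins (BMPs) are secreted ligands that bind paired type I and type II receptors, which phosphorylate receptor-regulated Smads that then enter the nucleus with *Smad4*. The pathway is held back at each step: secreted antagonists trap ligands outside the cell, the pseudoreceptor *Bambi* sits in the membrane without kinase activity, and the inhibitory Smads act inside. In the tooth germ BMPs pass between epithelium and mesenchyme and act at the enamel knot, the signaling center that directs crown shape, and loss of *Sostdc1* in mice gives extra teeth and fused molars.

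The deposited values were log2 signals after RMA, so a difference of 1 is a fold change of 2, and a signal was compared only between samples of the same probe set. All 9 genes passed the filter of a log2 signal above 5 in at least 1 compared sample, and the lowest single value was 7.08, for *Chrdl1* in lower incisor 3. A gene was called where limma gave a Benjamini-Hochberg adjusted p under 0.1 over all probe sets tested together with a fold change above 1.2, the threshold that the study used for pathways. Over all probe sets, mandibular molars 5 to 8 correlated more closely with maxillary molars (median r of 0.992) than with mandibular molars 1 to 4 (0.985). The labels do not name this division. Mandibular molars 1 to 4 correlated about equally with lower incisors (median r of 0.9851) and with mandibular molars 5 to 8 (0.9845). From these correlations alone the place of the incisors in this division is less clear. Limma called 1.78% of probe sets between lower incisors and mandibular molars 1 to 4, but 20.8% between lower incisors and mandibular molars 5 to 8. By that count the incisors lay nearer to samples 1 to 4. Because of the division each comparison is given also within a set. The first set is lower incisors and mandibular molars 1 to 4, and the second is maxillary molars and mandibular molars 5 to 8. *Krt14*, *Krt5*, *Cdh1*, *Epcam* and *Trp63* of the dental epithelium lay between 8.65 and 12.53 in every sample, and *Pax9*, *Prrx1* and the other 4 dental mesenchyme markers between 9.25 and 12.30. All tooth germs share these genes, so they show that the samples hold dental tissue but not which tooth each sample is. One of them, *Pax9*, was called higher in mandibular molars than in incisors, by 1.14 ± 0.12 (SE), and than in maxillary molars, by 0.37 ± 0.07, within sets as well.

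**Figure D1:**
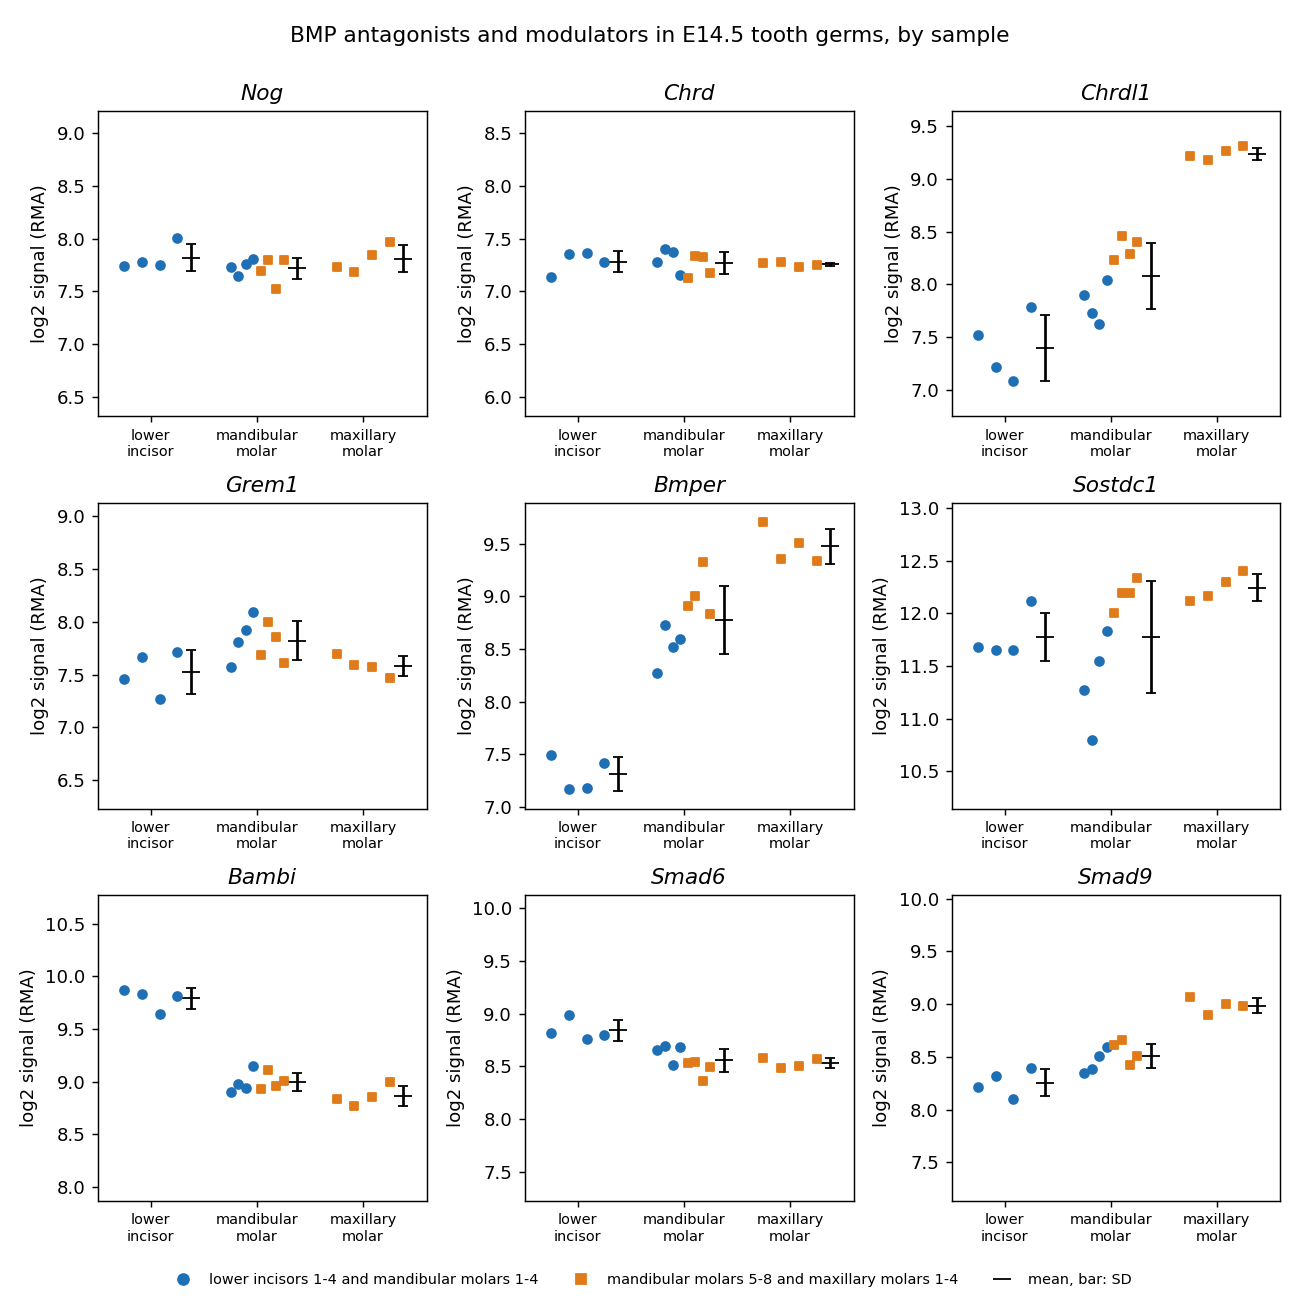
Log2 signal (RMA) of each of the 9 genes in each sample, by tooth type, with the mean and SD beside the points. Every panel spans the same number of log2 units. *Bmper* and *Chrdl1* climb from lower incisor to maxillary molar, *Bambi* is highest in the 4 incisor samples, and *Nog* and *Chrd* stay nearly level. The *Sostdc1* points of mandibular molars 1 to 4 (circles) lie below those of 5 to 8 (squares).

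Between mandibular molars and lower incisors 4 of the 9 genes were called, against 4.93% of the 29258 probe sets tested. *Bmper* (fold change 2.75) and *Chrdl1* (1.61) were higher in mandibular molars, where 2.75% of all probe sets were called higher. *Bambi* (1.73) and *Smad6* (1.22) were higher in incisors, where 2.18% were called. The samples of the compared groups did not overlap for 3 of the 9, *Bmper*, *Bambi* and *Smad6*, against 3.69% of all probe sets. The count of 4 dropped to 2 without lower incisor 1 or without lower incisor 2, and *Bmper* and *Bambi* alone were called within the first set, where 1.78% of probe sets were called. Between mandibular and maxillary molars 3 of the 9 were called, *Chrdl1* (2.23), *Bmper* (1.62) and *Smad9* (1.40), against 2.18% of the 29068 probe sets tested. All 3 were higher in maxillary molars, where 1.18% of all probe sets were called, and none of the 3 overlapped between the groups, against 4.1% of probe sets. Within the second set *Chrdl1* and *Smad9* were called, where 1.28% of probe sets were. *Nog*, *Chrd*, *Grem1* and *Sostdc1* were called in neither comparison of the study.

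**Figure D2:**
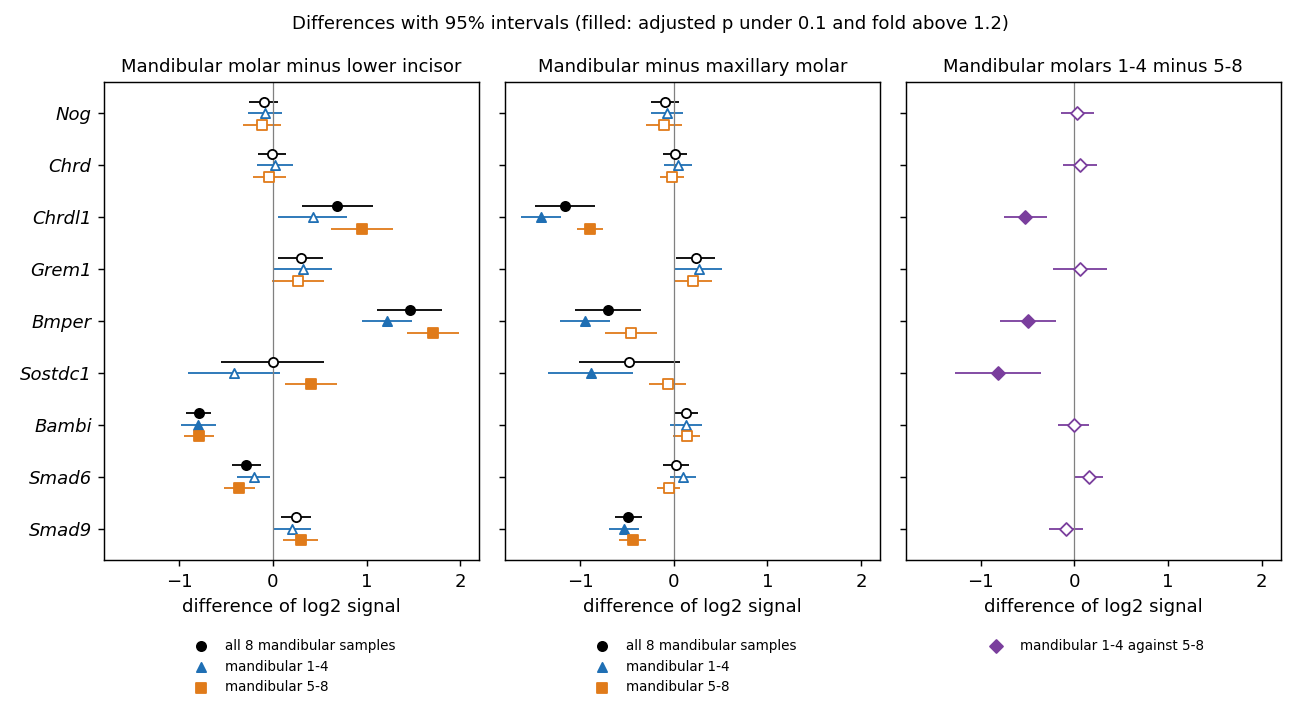
Difference of log2 signal of each gene with its 95% interval, for mandibular molars against lower incisors, mandibular against maxillary molars, and mandibular molars 1 to 4 against 5 to 8. Filled symbols mark called genes. The *Bambi* difference from incisors is nearly the same with mandibular molars 1 to 4 and with 5 to 8, at -0.80 and -0.79, while that of *Sostdc1* runs from -0.41 to 0.40.

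*Bmper* encodes a secreted BMP-binding protein with chordin-type cysteine-rich repeats, which can restrain or promote BMP signaling depending on context. It spanned 2.53 log2 units over the 16 samples, the widest range of the 9 genes. Its log2 signal was 7.49, 7.17, 7.18 and 7.41 in lower incisors, from 8.27 through a median of 8.78 to 9.33 in mandibular molars, and 9.70, 9.35, 9.50 and 9.34 in maxillary molars. The order was thus lower incisor, mandibular molar, maxillary molar, with a clear gap below the mandibular samples and almost none above them, since the highest mandibular value (9.33) lay next to the lowest maxillary one (9.34). Mandibular molars 1 to 4 ran from 8.27 to 8.73 and 5 to 8 from 8.84 to 9.33. Group means were 7.31 ± 0.16 (SD, n = 4), 8.77 ± 0.32 (SD, n = 8) and 9.47 ± 0.17 (SD, n = 4). Mandibular molars exceeded incisors by 1.46 ± 0.16 (SE; adjusted p = 0.000202), the only call of the 9 genes there at a fold change above 2, which 0.506% of probe sets passed. Within the first set the difference was 1.21 ± 0.12 (adjusted p = 0.0021), and it was called in all 12 fits that left out 1 sample. Mandibular molars lay below maxillary molars by -0.70 ± 0.16 (SE; adjusted p = 0.056). That call was the less firm one. Within the second set the difference was -0.45 ± 0.12 with no overlap but an adjusted p of 0.171 (7.96% of probe sets did not overlap there), and the call was lost without mandibular molar 3 (adjusted p = 0.103) or without maxillary molar 1, 2, 3 or 4 (0.221, 0.135, 0.142 and 0.104).

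The region before the *Bmper* start is shown because this gene moved most, and to let it be set beside those of the Smads below. The set of RefSeq promoters (GRCm38.p6) used here covered 5 of the 9 genes, *Bmper*, *Smad6*, *Smad9*, *Chrd* and *Grem1*. Where RefSeq lists several transcripts, its start can lie inside the gene. It was the outermost start of the gene for *Bmper* and *Grem1*, and lay 26 bases inside the gene for *Smad6*, 127 for *Smad9* and 1702 for *Chrd*. The 250 bases before each start were searched on both strands for GGCGCC, a GC-rich element bound by BMP-activated Smads, and for the palindromic Smad-binding sequence GTCTAGAC. Both read the same on either strand, and they cannot overlap each other. The *Bmper* window, chr9:23222826-23223075 on the plus strand, held neither.
*Bmper*: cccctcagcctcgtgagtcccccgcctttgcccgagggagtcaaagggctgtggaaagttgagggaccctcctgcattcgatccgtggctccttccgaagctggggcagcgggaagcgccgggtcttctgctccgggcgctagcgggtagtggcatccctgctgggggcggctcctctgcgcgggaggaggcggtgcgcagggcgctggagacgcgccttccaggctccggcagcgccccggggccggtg
Of 32851 promoter windows of the same length, 9.59% held GGCGCC and 0.167% held GTCTAGAC. These were not matched for base content, and the windows of the 5 genes were rich in G and C, from 66.8% (*Smad6*) to 78% (*Chrd*). *Grem1* and *Chrd*, which were called in neither comparison, each held GGCGCC once, 78 and 203 bases before the start used, and the *Chrd* match lay 1499 bases after the outermost start of that gene.

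*Chrdl1*, on the X chromosome, encodes chordin-like 1 (ventroptin), a secreted antagonist that binds BMPs through cysteine-rich domains. Its log2 signal was 7.52, 7.21, 7.08 and 7.78 in lower incisors, 7.90, 7.72, 7.62 and 8.05 in mandibular molars 1 to 4, 8.23, 8.46, 8.29 and 8.41 in samples 5 to 8, and 9.21, 9.18, 9.26 and 9.31 in maxillary molars. The maxillary samples stood apart from all others and close together, whereas lower incisor 4 lay above mandibular molars 2 and 3, so that incisors and mandibular molars overlapped. Means were 7.40 ± 0.31 (SD, n = 4) in incisors, 8.08 ± 0.31 (SD, n = 8) in mandibular and 9.24 ± 0.06 (SD, n = 4) in maxillary molars. Against maxillary molars the difference was -1.16 ± 0.15 (SE; adjusted p = 0.00189), with a 95% interval from -1.48 to -0.84, the only call of the 9 at a fold change above 2 in this comparison, which 0.196% of probe sets passed. It was -0.90 ± 0.06 within the second set (adjusted p = 0.00105), where *Chrdl1* had the 7th smallest p of 28686 probe sets, and it was called in all 12 fits that left out 1 sample. Against incisors mandibular molars were higher by 0.68 ± 0.18 (SE; adjusted p = 0.0541), but by 0.42 ± 0.16 within the first set (adjusted p = 0.456). The call against incisors was also lost without mandibular molar 5 (adjusted p = 0.103) or lower incisor 1, 2 or 3 (0.107, 0.164 and 0.198), and with the methods' t-test (0.103).

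*Sostdc1* (also ectodin or Wise) encodes a secreted antagonist of BMP and modulator of Wnt signaling, made by the enamel organ around the enamel knot. Its log2 signal was 11.68, 11.65, 11.65 and 12.12 in lower incisors, 11.27, 10.79, 11.54 and 11.83 in mandibular molars 1 to 4, 11.998, 12.19, 12.19 and 12.33 in samples 5 to 8, and 12.12, 12.17, 12.29 and 12.40 in maxillary molars. Mandibular molars 1 to 4 and 5 to 8 did not overlap, and mandibular molar 2 was the lowest sample of all 16. The spread within tooth types was the widest of the 9 genes, with a pooled SD of 0.41 against 0.28 or less for the others. Means were 11.77 ± 0.23 (SD, n = 4) in incisors, 11.77 ± 0.53 (SD, n = 8) in mandibular and 12.24 ± 0.13 (SD, n = 4) in maxillary molars. Mandibular molars did not differ from incisors beyond this spread, by -0.00 ± 0.26 (SE; 95% interval -0.56 to 0.55; adjusted p = 0.996), nor from maxillary molars, by -0.47 ± 0.25 (95% interval -1.01 to 0.07; adjusted p = 0.337). Mandibular molars 1 to 4 lay below incisors by -0.41 ± 0.22 (adjusted p = 0.678) and mandibular molars 5 to 8 above them by 0.40 ± 0.12 (adjusted p = 0.0495, a comparison across sets where 20.8% of probe sets were called), so the sign turned with the samples used. Against maxillary molars mandibular molars 5 to 8 differed by -0.07 ± 0.09 (95% interval -0.26 to 0.13). The mean log2 signal of the 5 measured enamel knot genes, *Shh*, *Fgf4*, *Fgf9*, *Wnt10b* and *Edar*, was 7.24 to 8.08 in mandibular molars 1 to 4 and 8.01 to 8.26 in 5 to 8. These ranges overlapped, unlike those of *Sostdc1*, as mandibular molar 4 lay above samples 6 and 8, while mandibular molar 2 was again the lowest. Dental epithelium markers ranged from 10.30 to 10.86 and from 10.80 to 11.01, overlapping as well, and limma called none of the 10 genes of both lists between samples 1 to 4 and 5 to 8 (3 at an unadjusted p under 0.05). Their part in the *Sostdc1* values was not tested.

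*Nog* and *Chrd* encode noggin and chordin, which bind BMPs outside the cell and keep them from their receptors, and *Grem1* encodes gremlin, an antagonist of the DAN family. *Chrd* was the steadiest of the 9, with a range of 0.27 log2 units over the 16 samples and means of 7.28 ± 0.10 (SD, n = 4), 7.27 ± 0.11 (SD, n = 8) and 7.25 ± 0.02 (SD, n = 4) in incisors, mandibular and maxillary molars. *Nog* had means of 7.82 ± 0.13, 7.72 ± 0.10 and 7.81 ± 0.13 in the same order. For both genes every group overlapped the others. The 95% interval of the difference between mandibular molars and incisors was -0.16 to 0.14 for *Chrd* and -0.25 to 0.05 for *Nog*, and that between mandibular and maxillary molars was -0.11 to 0.14 and -0.24 to 0.06. *Grem1* had its highest mean in mandibular molars, 7.82 ± 0.19 (SD, n = 8), against 7.52 ± 0.21 in incisors and 7.58 ± 0.09 in maxillary molars (SD, n = 4 each). These groups overlapped too, and neither *Grem1* difference was called, at 0.29 ± 0.11 against incisors (adjusted p = 0.191) and 0.24 ± 0.10 against maxillary molars (adjusted p = 0.252). With array weights in the fit the *Grem1* difference from incisors was called (adjusted p = 0.064).

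*Bambi* encodes a transmembrane pseudoreceptor that resembles type I receptors but lacks the kinase domain, and it is itself a target of BMP signaling in many cells. Its log2 signal was 9.87, 9.84, 9.65 and 9.81 in lower incisors and 8.83, 8.77, 8.86 and 8.99 in maxillary molars, while the mandibular samples ran from 8.90 through a median of 8.97 to 9.15. All 4 incisor samples lay above all 12 molar samples. Means were 9.79 ± 0.10 (SD, n = 4) in incisors, 8.996 ± 0.09 (SD, n = 8) in mandibular and 8.86 ± 0.09 (SD, n = 4) in maxillary molars. Mandibular molars were below incisors by -0.79 ± 0.06 (SE; 95% interval -0.93 to -0.66; adjusted p = 1.23e-05). The difference was -0.80 ± 0.08 within the first set (adjusted p = 0.00266), and it was called in all 12 fits that left out 1 sample. The mandibular and maxillary groups were neighbours in this order and overlapped, with a difference of 0.13 ± 0.06 that was not called (95% interval 0.00 to 0.26; adjusted p = 0.284). Mandibular molars 1 to 4 and 5 to 8 had means of 8.992 and 9.001.

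*Smad6* encodes an inhibitory Smad that blocks BMP receptors and receptor-regulated Smads and is induced by the pathway as a feedback. Its log2 signal was 8.82, 8.99, 8.76 and 8.80 in lower incisors and 8.58, 8.48, 8.50 and 8.57 in maxillary molars, and the mandibular samples ran from 8.36 through a median of 8.53 to 8.69. As for *Bambi*, the 4 incisor samples were above every molar sample, but by a smaller step. Mandibular molars (8.56 ± 0.11, SD, n = 8) were below incisors (8.84 ± 0.10, SD, n = 4) by -0.28 ± 0.07 (SE; adjusted p = 0.0485), a fold change of 1.22 that only just passed the threshold. Within the first set the difference was -0.21 ± 0.08 with no overlap, at an adjusted p of 0.423 where 6.06% of probe sets did not overlap. The call was lost without lower incisor 1 (adjusted p = 0.117) or 2 (0.164), with each sample centred on its median (0.165), and without mandibular molar 7, where the difference of -0.26 fell under the fold threshold. Mandibular and maxillary molars (8.53 ± 0.05, SD, n = 4) differed by 0.02 ± 0.06 (95% interval -0.11 to 0.16).

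*Smad9* (also Smad8) is not an antagonist but a receptor-regulated Smad, which carries the BMP signal from the receptors to the nucleus. Its log2 signal was 8.21, 8.32, 8.10 and 8.39 in lower incisors and 9.06, 8.90, 8.9999 and 8.99 in maxillary molars, with mandibular samples from 8.35 through a median of 8.51 to 8.66. The maxillary samples were above all others, and only lower incisor 4 reached into the mandibular range. Means were 8.26 ± 0.13 (SD, n = 4), 8.50 ± 0.11 (SD, n = 8) and 8.99 ± 0.07 (SD, n = 4) in incisors, mandibular and maxillary molars. Mandibular molars were below maxillary molars by -0.48 ± 0.07 (SE; adjusted p = 0.00287), by -0.44 ± 0.06 within the second set (adjusted p = 0.0276), and the call held in all 12 fits that left out 1 sample. Their excess of 0.25 ± 0.07 over incisors just missed the call (adjusted p = 0.103; fold change 1.19). It passed without mandibular molar 1 (adjusted p = 0.0826), mandibular molar 2 (0.0684) or lower incisor 4 (0.0665), and not within the first set (0.20 ± 0.09, adjusted p = 0.578).

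The regions before both Smad genes follow, limited to the part of the same window that lies before the outermost start of the gene. For *Smad6* these are 224 bases, chr9:64022086-64022309 on the minus strand, and for *Smad9* 123 bases, chr3:54755332-54755454 on the plus strand.
*Smad6*: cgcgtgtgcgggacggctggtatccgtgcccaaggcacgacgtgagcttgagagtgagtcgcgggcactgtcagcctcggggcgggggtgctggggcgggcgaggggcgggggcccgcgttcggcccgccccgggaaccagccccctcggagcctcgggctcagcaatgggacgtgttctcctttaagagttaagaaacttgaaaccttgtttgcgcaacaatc
*Smad9*: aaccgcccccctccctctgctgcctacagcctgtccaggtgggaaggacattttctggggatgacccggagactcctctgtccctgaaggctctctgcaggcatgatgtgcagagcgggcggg
Neither stretch held GGCGCC or GTCTAGAC, nor did the whole *Smad6* window. The whole *Smad9* window held GGCGCC once, 51 bases before the start used and thus 76 bases after the outermost start of the gene.

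In the grouping used here maxillary molars and lower incisors share no set, so tooth type and set cannot be told apart between them. Of all probe sets 27.8% were called there (14.4% higher and 13.4% lower in maxillary molars) and 32.3% did not overlap. Of the 9 genes 6 were called, none with overlap: *Bmper* (2.16 ± 0.11), *Chrdl1* (1.84 ± 0.14), *Smad9* (0.73 ± 0.08) and *Sostdc1* (0.47 ± 0.12) higher in maxillary molars, *Bambi* (-0.93 ± 0.07) and *Smad6* (-0.31 ± 0.07) lower. For *Sostdc1* the groups all but touched, at 12.117 in lower incisor 4 and 12.118 in maxillary molar 1. At a fold change above 2, *Bmper* and *Chrdl1* were called, as were 1.82% of probe sets. *Sostdc1* was not called with all 3 tooth types in 1 fit (adjusted p = 0.189), and *Smad6* fell under the fold threshold without lower incisor 2 (-0.26). Within the mandibular molars, where tooth type was constant, 11.8% of 28936 probe sets were called between samples 1 to 4 and 5 to 8, with 7.29% lower in 1 to 4. Of the 9 genes 3 were called, with no overlap, against 19.6% of probe sets that did not overlap. *Sostdc1* (-0.82 ± 0.20, adjusted p = 0.0442), *Chrdl1* (-0.52 ± 0.10, adjusted p = 0.0231) and *Bmper* (-0.49 ± 0.13, adjusted p = 0.0553) were all lower in samples 1 to 4. The call was lost for *Bmper* without mandibular molar 1, 5, 6 or 7 (adjusted p = 0.114, 0.101, 0.124 and 0.101) and for *Sostdc1* without 1, 6 or 8 (0.102, 0.109 and 0.112), so that 1 gene was called without sample 1 or without sample 6. *Bambi*, *Smad9*, *Nog*, *Chrd*, *Grem1* and *Smad6* were not called, with differences between -0.09 (*Smad9*) and 0.15 (*Smad6*). Genes called against maxillary molars were thus in part those that also differed between mandibular samples 1 to 4 and 5 to 8, *Chrdl1* and *Bmper*, while for *Smad9* that difference was -0.09 ± 0.08.

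Markers of other cell types moved with tooth type as well. Keratinizing epithelium genes *Krt1*, *Krt10* and *Sprr3*, 3 of 4 on the list, were higher in incisors, also within the first set, and the list's mean log2 signal was 7.93 to 8.50 in incisors, 6.62 to 7.42 in mandibular and 7.00 to 7.48 in maxillary molars. Cartilage genes such as *Acan* were higher in incisors for 5 of 6, with 1 of 6 called within the first set, and the list's mean ran from 7.57 to 9.08 in incisors and from 7.23 to 7.49 in mandibular molars. Skeletal muscle genes were higher in mandibular than in maxillary molars for 6 of 8 (5 of 8 within the second set), at 7.38 to 8.67 against 6.63 to 7.01, and higher in incisors, at 8.45 to 8.63, than in mandibular molars for 4 of 8, though limma called none within the first set (4 at an unadjusted p under 0.05). All 8 muscle genes, *Ckm* and *Myh3* included, had log2 signals above 5 in every sample. Mast cell genes *Mcpt4*, *Cma1* and *Tpsb2*, 3 of 5, were higher in incisors than in mandibular molars, also within the first set, while *Kit*, which other cells also make, was lower there (0.44 ± 0.09), a call not made within the first set. The list's mean was 6.95 to 7.60 in incisors, 6.49 to 7.22 in mandibular and 6.39 to 6.99 in maxillary molars. The neurofilament genes *Nefl* (fold change 4.66) and *Nefm* (1.96), 2 of 4 neuron and Schwann cell genes, were higher in mandibular than in maxillary molars, also within the second set, and that list's mean was 6.83 to 7.66 against 6.36 to 6.59, with 6.79 to 7.28 in incisors. *Nefl* (2.68) was also higher and *Sox10* (1.28) lower in mandibular molars than in incisors. The enamel knot genes *Fgf4* (1.96) and *Edar* (1.35), 2 of 5, and the macrophage genes *Mrc1* (1.32) and *Adgre1* (1.25), 2 of 5, were higher in mandibular molars than in incisors, but limma called none of these 4 within the first set, where all 4 had an unadjusted p under 0.05. The enamel knot mean was 7.46 to 7.74 in incisors. Of 13 dental epithelium, endothelial and red blood cell genes limma called none in either comparison of the study (4 at an unadjusted p under 0.05 against incisors and 3 against maxillary molars). The part of these tissues in the differences of *Bambi*, *Bmper*, *Chrdl1*, *Smad6* and *Smad9* was not tested.

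The other genes of the pathway are given by role, from 6 lists of 63 genes of which 61 had a probe set of their own. Among the ligands, 4 of 13 tested were lower in mandibular molars than in incisors and none was higher: *Bmp5* (-1.54 ± 0.15, adjusted p = 6.23e-05), *Gdf6* (-0.66 ± 0.10), *Bmp3* (-0.61 ± 0.14) and *Bmp6* (-0.36 ± 0.09). The first 3 of these were called within the first set too. The median difference of the ligands was -0.08, beside -0.02 for all probe sets tested. *Bmp4* and *Bmp2*, ligands well known from the tooth germ, were not called (0.03 ± 0.20 and 0.09 ± 0.10). Of 13 other secreted antagonists 2 were higher in mandibular molars, *Fst* (0.51 ± 0.13), which encodes the activin and BMP antagonist follistatin, and *Crim1* (0.31 ± 0.06). Another 2 were lower, *Nbl1* (-0.77 ± 0.12), the founding DAN family antagonist, and *Kcp* (-0.49 ± 0.10), whose product carries chordin-type repeats but enhances BMP signaling. *Tll1*, 1 of 3 genes for proteases that cleave chordin, was lower in mandibular molars (-0.61 ± 0.11), also within the first set. Among 12 receptors and co-receptors the type II receptor *Acvr2a* (0.44 ± 0.08) and the co-receptor *Rgmb* (0.39 ± 0.08) were higher. *Hjv* (-0.94 ± 0.23), which encodes the co-receptor hemojuvelin, was lower. Its means were 8.23 in incisors, 7.29 in mandibular and 6.51 in maxillary molars, the same order as for the skeletal muscle genes above. The part of muscle in the *Hjv* values was not tested. *Smurf2*, a ubiquitin ligase that acts on Smads and receptors, was the only one of 11 Smads and regulators called (0.28 ± 0.08). None of the 8 listed BMP target genes was called by limma or by the methods' t-test, while 3 had an unadjusted p under 0.05. *Msx2* (-0.76 ± 0.28, adjusted p = 0.182) had the largest difference of the 8. *Bambi* and *Smad6*, described above as induced by BMP signaling, are not on this list, and both were called higher in incisors. In all 13 of the 60 tested pathway genes were called against incisors, beside 4.93% of all probe sets, and 6 of 60 within the first set, beside 1.78%. Within that set limma called 1 other secreted antagonist, lower in mandibular molars, and 1 receptor or co-receptor, higher. It called no Smad or regulator there, so *Fst*, *Crim1*, *Hjv* and *Smurf2* were not called within the first set.

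Between mandibular and maxillary molars 4 of 60 other pathway genes were called, beside 2.18% of all probe sets. The ligand *Bmp6* (-0.39 ± 0.08) and the co-receptor *Neo1* (-0.33 ± 0.08) were lower in mandibular molars, and the antagonists *Nbl1* (0.58 ± 0.14) and *Chrdl2* (0.38 ± 0.09), a relative of *Chrdl1*, were higher. *Chrdl1* and *Chrdl2* thus differed in opposite directions, with *Chrdl1* higher and *Chrdl2* lower in maxillary molars. The *Chrdl2* signal was low, from 6.39 to 6.83 in mandibular and from 6.10 to 6.45 in maxillary molars. These values lay around or below the sample medians of 6.80 to 6.99. No gene of the target list was called by limma or by the methods' t-test (4 of 8 at an unadjusted p under 0.05). The median of the 8 was -0.23, beside 0.02 for all probe sets tested and -0.09 for the 9 antagonists and modulators. This median moved to -0.08 within the second set, where limma called none of the 60 other pathway genes (11 at an unadjusted p under 0.05). Within the mandibular molars 3 of the 8 target genes were called, all lower in samples 1 to 4. The count of 4 dropped to 0 without maxillary molar 1, to 1 without maxillary molar 2, 3 or 4 or mandibular molar 3 or 4, and to 2 without mandibular molar 1. Across sets, mandibular molars 1 to 4 against maxillary molars, 21 of the 60 were called beside 19.1% of all probe sets, as were 4 of the 9 antagonists and modulators, *Chrdl1*, *Bmper*, *Sostdc1* and *Smad9*.

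**Figure D3:**
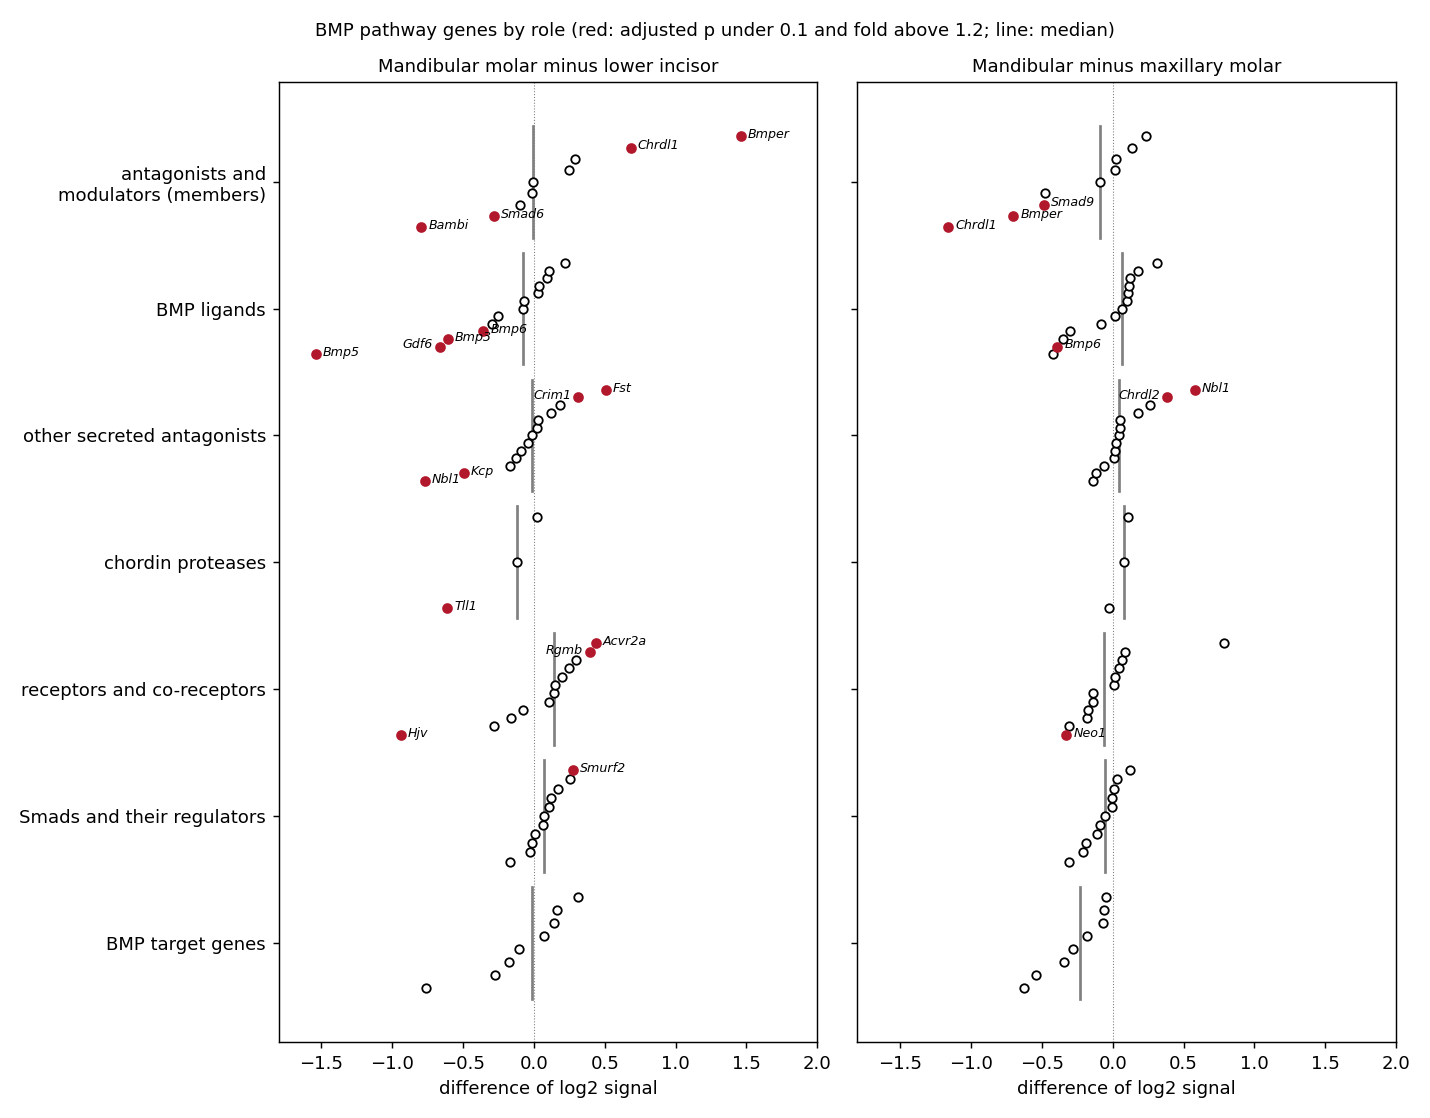
Differences of log2 signal of the 9 antagonists and modulators and of 6 lists of other BMP pathway genes, for mandibular molars against lower incisors (left) and against maxillary molars (right). Each point is a gene, red and named where called, and a grey line is the median of its row. Called ligands lie on the incisor side at left, down to -1.54 for *Bmp5*, and no gene of the target gene list is called in either panel.

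The genes whose profile was nearest to each called member were sought among 17327 genes by the root mean square difference of centred log2 signals over the 16 samples, as a description. Nearest to *Bmper* were *Nlgn1* (0.203), *Tmem30b* (0.223) and *Cntn3* (0.274), and nearest to *Chrdl1* were *Naalad2* (0.168), *Cntn1* (0.240) and *Gabrb1* (0.255). *Tmem30b*, for instance, had means of 6.80, 8.32 and 8.85 in incisors, mandibular and maxillary molars. For *Bambi* they were *Wscd2* (0.116), *Syt13* (0.124) and *Ism1* (0.124), all highest in incisors. For *Smad6* they were *Tpst1* (0.0698), *Ighmbp2* (0.0746) and *Rabac1* (0.0766), and for *Smad9* they were *Stx18* (0.102), *Msx1* (0.107) and *Grb14* (0.110). *Msx1*, a BMP target gene of the dental mesenchyme, had means of 10.29, 10.46 and 10.80. Among the 9 genes themselves *Chrdl1* and *Bmper* lay 0.390 apart, and *Chrdl1* ranked 28 of 17327 from *Bmper* and *Bmper* 85 from *Chrdl1*. *Bambi* and *Smad6*, both highest in incisors, lay 0.261 apart. *Smad6* ranked 340 from *Bambi*, but *Bambi* 12640 from *Smad6*, so most genes lay nearer to *Smad6* than *Bambi* did. *Smad9* and *Chrdl1*, both highest in maxillary molars, lay 0.450 apart, and *Smad9* ranked 228 from *Chrdl1* but *Chrdl1* 16131 from *Smad9*. This measure counts the size of a change as well as its shape. About its own mean *Smad6* had a root mean square of 0.155 and *Smad9* of 0.282. A wholly level gene would thus lie nearer to *Smad6* than *Bambi* did, and nearer to *Smad9* than *Chrdl1* did.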

How the data were processed

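Tooth germs from lower incisors (4 samples), mandibular molars (8) and maxillary molars (4) were profiled on 1 array per sample, grouped by the labels. The authors deposited log2 signals of 35556 probe sets, made with RMA in Affymetrix Expression Console 1.1 (background correction, quantile normalization, median polish). These were used as deposited, and sample medians lay between 6.80 and 6.99. Arrays give no read depth, so the number of arrays limits the precision. Correlations between samples were 0.971 to 0.995 over 120 pairs, and no pair was identical. Symbols followed GRCm38.p6, with 21789 probe sets naming 1 gene, 1621 several and 12146 none, and genes were reported only from the first kind.

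For each comparison probe sets above 5 in at least 1 compared sample were fitted by limma 3.58.1 (lmFit, then eBayes; R 4.3.3) on those samples alone, without a block. The methods' t-test, other filters, a floor, other normalizations, variance models, sample choices, thresholds and leaving out each sample were alternatives. The procedure was tested on simulated data. The 9 genes, the 6 pathway lists, the 11 marker lists and the sample sets were chosen with earlier results of these data known. Named genes were the 9 members, up to 4 called genes per pathway list and comparison, smallest adjusted p first, and the 3 nearest profiles of each called member. *Bmp2*, *Bmp4* and *Msx2*, which were not called, and single genes of the marker lists were named after their values were seen. Sequences came from RefSeq promoters. Figures were drawn with matplotlib 3.10.9. No protein sequence was used here.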

Additional observations from a re-analysis of the deposited data

Results flagged for a closer look

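Lower incisor 4 stood apart from the other 3 incisor samples for a pair of the 9 genes, by Dixon's criterion for the gap between an extreme sample and its nearest neighbour relative to the range. *Sostdc1* was at 12.12 there against 11.65 to 11.68 in the others (gap over range 0.930), and *Nog* at 8.01 against 7.75 to 7.78 (0.887). They were 2 of 27 groups of samples examined, and chance marks about 1 group in 20. Without lower incisor 4 neither gene was called between mandibular molars and incisors, with differences of 0.11 for *Sostdc1* and -0.04 for *Nog*.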

How the results depend on the processing

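Of the single-gene differences under all alternatives, 783 kept their side of the threshold, 44 lost the call, 9 gained it and 1 reversed, *Sostdc1* in mandibular molars against incisors with mandibular molars 5 to 8 alone (0.40). The calls of *Bmper* and *Bambi* against incisors and of *Chrdl1* and *Smad9* against maxillary molars held under all 25 alternatives at a fold change above 1.2.

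Against incisors the 4 called members became 1 at a fold change above 2 and 2 with mandibular molars 1 to 4 alone, and were 2 to 5 when each sample was left out in turn. The 13 pathway genes became 1 at a fold change above 2, 6 with mandibular molars 1 to 4 and 21 with 5 to 8, and were 9 to 14 with a sample left out. Of all probe sets 4.93% were called in the main fit and 0.506% at a fold change above 2. With mandibular molars 1 to 4 the share was 1.78%, and with 5 to 8, a comparison across sets, it was 20.8%. Against maxillary molars the 3 called members became 1 at a fold change above 2, and were 2 to 3 with a sample left out. The 4 pathway genes became 0 at a fold change above 2, 2 with median centring, 1 with the methods' t-test and 7 with 1 probe set per gene. They became 21 with mandibular molars 1 to 4 and 0 with 5 to 8, and were 0 to 6 with a sample left out. Of all probe sets 2.18% were called in the main fit, 19.1% with mandibular molars 1 to 4, a comparison across sets, and 1.28% with 5 to 8. Between maxillary molars and incisors the 6 called became 2 at a fold change above 2, and were 5 to 6 with a sample left out. Between mandibular molars 1 to 4 and 5 to 8, where all alternatives were chosen after seeing the data, the 3 called became 0 at a fold change above 2, and were 1 to 3 with a sample left out. The causes of these shifts were not tested.

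The replicate numbers are not stated to pair samples. The deviations of same-numbered samples correlated at 0.09, 0.10, 0.26 and 0.67 between mandibular molars and incisors. Between mandibular and maxillary molars they correlated at 0.01 to 0.39. The best-correlated partner had the same number for mandibular molars 3 and 4 against incisors, and for mandibular molar 2 against maxillary molars. Whether same-numbered samples share an origin was not settled. With a replicate block on mandibular molars 1 to 4, 3 members and 9 pathway genes were called against incisors, beside 1.92% of all probe sets, and 4 and 21 against maxillary molars, a comparison across sets where 20.2% of probe sets were called. On the same samples without the block, a fit added after seeing the data, the counts were 2 and 6 (1.78% of probe sets), and 4 and 21 (19.1%). Between maxillary molars and incisors 6 were called either way, with 28.2% of probe sets under the block and 27.8% without. Another probe set of a member could not be tried, since each had 1. The lowest value of the 9 genes was 7.08, a little above the sample medians of 6.80 to 6.99. How far their lowest signals stood above the background was not tested.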
